A study of Mus musculus with 3 samples.

Results

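The TOX family consists of 4 genes, Tox, Tox2, Tox3 and Tox4, which were taken by name out of 21938 protein-coding genes of the mouse annotation. The measurements came from DNase-seq, which maps accessible chromatin by where the enzyme DNase I cuts nuclear DNA, in 3 libraries of natural killer primary cells that form 1 group of 3 biological replicates. The cells came from adult male B6CASTF1/J mice, the F1 hybrid of C57BL/6 and CAST, at 2 months of age, with no treatment in the labels. The libraries carry 1 shared donor label and different biosample labels, so spread between replicates may be technical, and the labels name no sort or gate. Each gene was examined in a window of its annotated body plus 20 kb on each side (mm10, GRCm38 coordinates), using the longer of the 2 deposited peak lists of each library. All 4 genes were found in the annotation, and all 4 were kept whatever their values.

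TOX proteins are nuclear factors that share 1 HMG-box, a domain that binds and bends DNA. Tox is needed for the development of natural killer cells, other innate lymphoid cells and CD4 T cells, and it is induced through calcineurin and NFAT in T cells under chronic stimulation. Tox2 is a close relative linked to natural killer cell maturation, Tox3 is best known from neurons and mammary epithelium, and Tox4 is a broadly expressed subunit of a phosphatase complex with PNUTS (Ppp1r10). Accessibility is a property of chromatin and does not measure RNA or protein.

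Replicate 1 was the sparse library, with 40484 peaks and 101990 footprints, against 84564 and 239483 in replicate 2 and 81854 and 222990 in replicate 3. A footprint is a short stretch inside accessible DNA where the authors' caller found fewer cuts than around it. Promoters of natural killer marker genes held a peak, in any of their annotated starts ± 500 bp, for 9, 12 and 12 of 12 genes in replicates 1, 2 and 3, led by Il2rb, Prf1 and Gzmb. Of all protein-coding genes, 52.8%, 60.1% and 59.3% were open by the same rule. T cell markers were open for 3, 10 and 7 of 12 (led by Cd28, Lat and Cd3d, with Cd4 and Cd8a closed in every library), a share near that of all genes in replicate 3, and B cell markers for 8, 12 and 11 of 12 (led by Cd22, Ebf1 and Cr2). The median promoter percentile of the B cell list was 26.7, 84.2 and 71.6, that of the T cell list 0, 51.0 and 29.3, and that of the natural killer list 66.8, 75.3 and 81.9. The percentiles summed over the 12 genes of each list were 338, 980 and 766 for B cells, 222, 569 and 415 for T cells, and 627, 848 and 964 for natural killer cells. Myeloid markers were open for 3 genes in each library, with Adgre1, C1qa and Cebpe among the 8 closed in all 3, and summed to 115, 154 and 175. Innate lymphoid markers, led by Rora, Gata3 and Zbtb16, were open for 4, 6 and 6 of 8, with Il1rl1 among those closed in every library, and summed to 220, 362 and 369. Each of these lists had its lowest sum in replicate 1, as did all protein-coding genes (882009, 1053081 and 1036519). From replicate 2 to replicate 3 the natural killer, myeloid and innate lymphoid lists rose in sum. The B and T cell lists fell, as did the sum over all genes. Whether other cells take part in the results on Tox and Tox2 was not tested.

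The sequences on which the results turn are the 4 sites of Tox2 that every library held, and the DNA just upstream of Tox4 and Tox3. They are read on the C57BL/6 reference (GRCm38), so the CAST allele of these hybrid cells may differ. For the Tox2 sites, capitals mark footprints found in at least 2 of the 3 replicates, and the plus strand, which is the strand of the gene, is shown. The stretch from the promoter site in intron 1 is chr2:163203478-163203688, and site 6 is the whole peak chr2:163229101-163229380, also in intron 1. The stretch at site 8, in intron 2, which runs a few bases past the peak, is chr2:163253433-163253614, and that from site 11, downstream of the gene, is chr2:163330831-163330931.
Tox2 promoter site in intron 1, part: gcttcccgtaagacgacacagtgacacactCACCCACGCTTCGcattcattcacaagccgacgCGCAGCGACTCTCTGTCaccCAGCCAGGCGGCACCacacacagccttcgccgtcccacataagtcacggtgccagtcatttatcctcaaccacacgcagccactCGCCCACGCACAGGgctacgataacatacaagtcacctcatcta
Tox2 site 6: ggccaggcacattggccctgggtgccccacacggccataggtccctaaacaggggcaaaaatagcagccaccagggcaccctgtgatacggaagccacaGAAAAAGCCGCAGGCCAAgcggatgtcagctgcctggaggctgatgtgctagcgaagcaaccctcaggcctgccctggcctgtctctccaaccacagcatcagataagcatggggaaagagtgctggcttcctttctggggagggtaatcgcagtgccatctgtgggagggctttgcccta
Tox2 at site 8: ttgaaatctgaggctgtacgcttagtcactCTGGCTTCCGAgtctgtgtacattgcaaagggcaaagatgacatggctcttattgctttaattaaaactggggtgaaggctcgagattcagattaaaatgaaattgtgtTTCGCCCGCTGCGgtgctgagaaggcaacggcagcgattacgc
Tox2 site 11, part: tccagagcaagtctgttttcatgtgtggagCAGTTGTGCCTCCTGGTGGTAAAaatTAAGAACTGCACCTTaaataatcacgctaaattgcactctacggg

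The RefSeq promoter table (GRCm38) matched 3 of the 4 genes, Tox2, Tox3 and Tox4. For Tox4 the 250 bases before its start are given (chr14:52278896-52279145, plus strand), with the footprints of all 3 replicates in capitals, shown because these footprints lay beside the peak and not inside it. For Tox3 the 159 bases before its outermost start are given (chr8:90348344-90348502, minus strand), with the GC boxes in capitals, because this CpG-rich stretch held no peak in any library.
Tox4 upstream: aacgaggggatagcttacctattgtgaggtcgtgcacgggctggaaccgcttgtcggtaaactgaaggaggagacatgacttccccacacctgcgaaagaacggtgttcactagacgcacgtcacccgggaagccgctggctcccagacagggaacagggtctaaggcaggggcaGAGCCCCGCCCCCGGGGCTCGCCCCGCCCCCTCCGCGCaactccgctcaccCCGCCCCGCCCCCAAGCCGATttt
Tox3 upstream: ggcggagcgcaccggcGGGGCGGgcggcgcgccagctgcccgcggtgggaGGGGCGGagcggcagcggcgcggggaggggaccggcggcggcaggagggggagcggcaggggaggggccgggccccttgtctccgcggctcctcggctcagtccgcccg

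At their promoters the 4 genes stood in the same order in every library, with Tox4 first, then Tox, Tox2 and Tox3. Tox4 was among the strongest peaks of each library, Tox and Tox2 had moderate peaks, and Tox3 had a weak peak in replicate 2 only. A promoter peak was present in all 3 replicates for 3 of the 4 members (Tox, Tox2 and Tox4), where 52.5% of all protein-coding genes were open in all 3. By library, 3, 4 and 3 of the 4 members were open, against 52.8%, 60.1% and 59.3% of all protein-coding genes. With 4 genes these counts say little by themselves, and the ranks below carry the description. The percentile is the rank of the strongest promoter peak by deposited signal among all peaks of the same library, with 0 for no peak. Ranks were compared within a library, since the unit of the signal is not stated.

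The promoter of Tox4 reached percentiles of 99.34, 99.47 and 99.48 in replicates 1, 2 and 3 (99.4 ± 0.0775, SD, n = 3), with deposited signals of 11.0, 23.9 and 25.1. It stood above 97.7%, 96.4% and 96.5% of the genes with an open promoter. Tox reached 72.3, 76.1 and 75.4 (74.6 ± 2.02, SD, n = 3) over all annotated starts. In replicates 2 and 3 that value came from a site at the 3′ end of the gene, near the start of a short noncoding transcript. At the 5′ end of Tox the percentiles were 72.3, 64.7 and 65.0 (67.3 ± 4.30, SD, n = 3). Tox2 reached 41.8, 63.7 and 61.6 (55.7 ± 12.1, SD, n = 3). The ranges of Tox and Tox2 did not overlap by either measure, but at the 5′ end the lowest Tox value and the highest Tox2 value were 64.7 and 63.7, both from replicate 2. Tox3 had a promoter percentile of 4.42 in replicate 2 and no promoter peak in replicates 1 and 3.

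Both Tox and Tox2 ranked low among open promoters. The median open promoter stood at percentile 84.3, 90.5 and 90.1 in the 3 libraries, above both genes each time. Over all annotated starts, Tox exceeded 29.8%, 26.4% and 26.3% of open genes, and Tox2 exceeded 10.9%, 19.1% and 18.1%. The Tox values of replicates 2 and 3 came from the site at the 3′ end. In these libraries the 5′ end of Tox stood at percentiles 64.7 and 65.0, beside 63.7 and 61.6 for Tox2. A rank of the 5′ end of Tox among open genes was not computed. A test of the order between members was not made, because an exact two-sided sign-flip test over 3 replicates cannot go below p = 0.25.

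**Figure D1:**
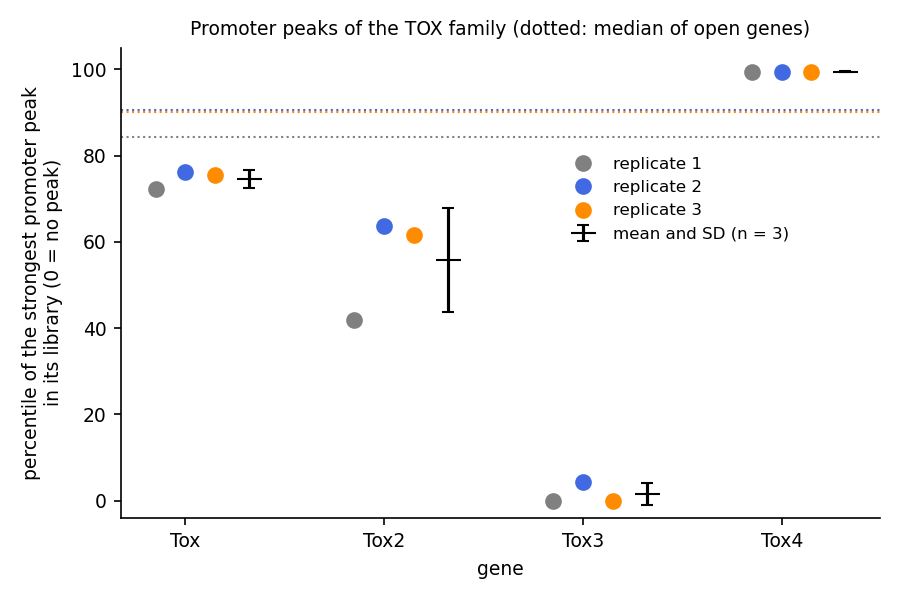
Percentile of the strongest promoter peak of each TOX family gene (y axis) for replicates 1, 2 and 3 as points, with the mean and SD over 3 libraries in black and the median percentile of open genes in each library as dotted lines. Tox4 lies above 99 in every library, Tox between 72.3 and 76.1, Tox2 between 41.8 and 63.7, and Tox3 at 0 except for 4.42 in replicate 2. The Tox points of replicates 2 and 3 come from a site at the 3′ end of the gene. Its 5′ end stood at 64.7 and 65.0 in these libraries.

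The strong peak of Tox4 belongs to a promoter shared with a neighbour. Tox4 (ENSMUSG00000016831.12, chr14:52279146-52296401, plus strand) stands head to head with Rab2b, a small GTPase of the secretory pathway, whose body runs from 52261759 to 52279545 on the minus strand. One merged site, chr14:52279241-52279600, covers UTR sequence of both genes and gave each the same percentile in each library. Which of the genes the accessibility belongs to cannot be told apart. Of the 5 sites in the window of Tox4, 1 lies at its own promoter and 1 at that of Mettl3, the catalytic subunit of the RNA m6A methyltransferase. Another 2 lie within 500 bp of an annotated start inside the body of Sall2, a zinc finger factor. The 5′ end of Sall2, on the minus strand, is at 52328762, outside the window. The Mettl3 promoter had percentiles of 88.4, 90.6 and 91.8, and the stronger of the Sall2 sites 21.7, 28.7 and 36.1. The remaining site, chr14:52310528-52310588, was held by replicate 3 alone at percentile 12.8. No peak of the window lay inside the Tox4 body beyond its promoter.

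The merged Tox4 promoter site, 360 bp wide, held 8, 7 and 8 footprints in replicates 1, 2 and 3. In single peaks at or above the 99th percentile of each library, 405, 846 and 820 peaks, the median was 6, 5 and 5 footprints. The median width of those peaks was 260, 240 and 240 bp, so the counts are over unlike widths. Merged over the replicates, 10 footprints lay in the site, 3 of them found in all 3 replicates and 3 more in 2. Another 3 footprints of all 3 replicates lay just upstream of the peak, at 52279071-52279108, 52279122-52279142 and 52279171-52279193. The first and second of these stand in capitals in the Tox4 sequence above, and each held a GC box (GGGGCGG on either strand), the element bound by Sp and Klf factors. A GC box was found in 5.86%, 4.21% and 4.26% of all footprints of the 3 libraries and in 23.2% of the promoters of the RefSeq table. Part of the printed stretch, towards its 5′ end, is also coding sequence of Rab2b.

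Tox (ENSMUSG00000041272.11, chr4:6686353-6991557, minus strand) is the long member of the family, with a body of 305.2 kb, and no other protein-coding gene starts in its 345.2 kb window. It held 11, 19 and 17 peaks, which merged into 21 sites, and 9 of those were found in all 3 replicates. These were 42.9% of its sites, beside 35.3% of all 99408 merged sites of the genome. Over the family, 16 of 41 sites (39.0%) were in all 3 replicates, 11 in 2 and 14 in 1, and each of the 11 was held by replicates 2 and 3. Genome-wide, 29569 of the 30678 sites held by 2 libraries were likewise those of replicates 2 and 3.

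The 5′ end of Tox carried a cluster of 7 sites within 5 kb. Site 1, chr4:6990961-6991560, spans the outermost annotated start and lies upstream of the coding transcript, which starts at 6990799. It had deposited signals of 2.03, 1.33 and 1.46 and held 7, 8 and 6 footprints. Site 3, chr4:6990201-6990520, lies across the end of exon 1, UTR included, and the beginning of intron 1, at percentiles of 54.1, 52.4 and 64.6. It ranked below site 1 in each library, narrowly in replicate 3.

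The other high sites of Tox were far from this cluster. Site 12, in intron 1 at chr4:6924611-6925178 and 66662 bp from the 5′ end, had percentiles of 8.2, 69.4 and 62.5 (46.7 ± 33.5, SD, n = 3). It was above the promoter site in replicate 2 and near the bottom of the list in replicate 1, the widest spread of any Tox site. Site 18, in intron 3 at chr4:6817261-6817540, had 20.7, 47.1 and 53.0 (40.3 ± 17.2, SD, n = 3). Both sites were lowest in replicate 1, the library with fewest peaks. None of the 21 sites lay in the introns between intron 3 and intron 8.

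At the 3′ end, sites 20 and 21 were as high as the promoter. Site 20, chr4:6688701-6688900, overlaps coding exon 8 and the neighbouring intron 8, lies inside the antisense noncoding gene Gm11802, and had percentiles of 50.1, 76.1 and 75.4 (67.2 ± 14.8, SD, n = 3). Site 21, chr4:6682061-6682300, lies downstream of the gene and had 54.5, 69.6 and 80.7 (68.2 ± 13.2, SD, n = 3). Both exceeded site 1 at the 5′ end in replicates 2 and 3, and both were below it in replicate 1. Site 20 held 2 of the 4 Tox footprints that all 3 replicates shared. The footprint at 6688784-6688812 held a CTCF motif and an E-box CACCTG, and the one at 6688846-6688869 a GC box. CTCF, an architectural factor that binds insulators and loop anchors, had its motif in 7.58%, 6.57% and 6.53% of all peaks and 2.01%, 2.06% and 2.08% of all footprints. The third shared footprint, 6682243-6682261 in site 21, held none of the 25 motifs searched, and the fourth lay in site 1.

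Tox2 (ENSMUSG00000074607.11, chr2:163203125-163324170, plus strand) has a body of 121.0 kb and 5 annotated starts, and held 7, 11 and 9 peaks in 13 sites. The peak that set its promoter rank, site 3 at chr2:163203404-163203780, lies in intron 1, with signals of 0.897, 1.28 and 1.28. Site 1, chr2:163202861-163203280, covers the 5′ start itself and was absent in replicate 1 and at percentiles 29.3 and 19.7 in replicates 2 and 3. Accessibility at Tox2 was thus ranked higher just inside the gene than across its first start. In the intron 1 stretch shown above, 1 footprint was shared by all 3 replicates and 3 by 2 of them. A RUNX motif (TGTGGTT) lay 11 bp from the nearest of these and overlapped a footprint found in replicate 2 alone.

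The strongest site of Tox2 was not at its promoter. Site 6, chr2:163229101-163229380, lies in intron 1, 26116 bp from the 5′ end. It is nearer to coding starts inside the gene, at 163225363 and 163225454, and no site lay within 500 bp of these. Its percentiles were 74.2, 82.5 and 87.9 (81.5 ± 6.91, SD, n = 3), with signals of 2.18, 3.13 and 5.17, and it ranked above the Tox2 promoter in all 3 libraries. It also ranked above every site of Tox in each library. The lowest value of site 6, 74.2, was above the highest promoter value of Tox2, 63.7, so the ranges did not overlap. Of its 7 merged footprints, 1 was found in all 3 replicates and 6 in only 1. Its central 150 bp held a RUNX motif, a GATA motif and an E-box. The GATA letters searched were AGATAAG, and the E-box was the CAGCTG form. None of these overlapped the shared footprint, and the E-box lay 9 bp from it. The RUNX motif overlapped a footprint found in replicate 2 alone, and the GATA motif one found in replicate 3 alone. RUNX and GATA factors and the E proteins that bind such E-boxes all take part in lymphocyte development. Of all peaks, 5.45%, 7.02% and 7.87% held the RUNX motif, 1.13%, 1.29% and 1.41% the GATA motif and 10.3%, 11.4% and 11.1% the E-box CAGCTG.

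Site 8, in intron 2 of Tox2 at chr2:163253321-163253600, had percentiles of 50.1, 63.0 and 73.9 (62.3 ± 11.9, SD, n = 3), above the promoter in replicates 1 and 3 and just below it in replicate 2. Site 11, downstream at chr2:163330761-163331073, had 4.9, 41.9 and 50.5 (32.4 ± 24.2, SD, n = 3). Replicate 1 was lowest at both. The remaining 5 sites shared by replicates 2 and 3 lay between percentile 19.7 and 42.4. Sites 12 and 13, the most distal, lie inside the body of the neighbouring gene Jph2, which encodes a junction protein of muscle and whose start is outside the window.

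Tox3 (ENSMUSG00000043668.13, chr8:90247040-90348343, minus strand) was close to bare. Its 141.3 kb window had 0, 2 and 0 peaks and 0 footprints in each library. The 2 peaks of replicate 2 were chr8:90348581-90348680, just upstream of the start, at percentile 4.4, and chr8:90356868-90356970 at 5.5. Intervals with an FDR of the cut rate of 0.05 or less covered 0, 230 and 6.37 bp per 100 kb of the window, where the genome as a whole had 591, 1185 and 1133. The lowest FDR at the Tox3 promoter was 0.00677 in replicate 2, and no such interval lay there in the other libraries. Near absence of peaks went with a CpG-rich promoter. The observed over expected CpG ratio within 500 bp of the outermost annotated start was 0.916, above 93.0% of protein-coding genes. The GC content was 78.0%. The ratios of Tox4, Tox2 and Tox were 0.812, 0.756 and 0.457, and the median gene had 0.552. For Tox the outermost start, 6991557, is that of a transcript not annotated as coding. Its coding start, 6990799, lies outside the stretch used, and the ratio there was not computed. The members' order by CpG ratio therefore differed from their order by accessibility. The 159 bases shown above held 2 GC boxes and 25 CpG dinucleotides.

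Peaks were counted per 100 kb to compare windows of different length. Tox had 3.19, 5.50 and 4.93 peaks per 100 kb (4.54 ± 1.21, SD, n = 3), and Tox2 had 4.35, 6.83 and 5.59 (5.59 ± 1.24). Tox4 had 5.24, 6.99 and 6.99 (6.40 ± 1.01), and Tox3 had 0, 1.42 and 0 (0.472 ± 0.817). In each library Tox4 was highest, then Tox2, Tox and Tox3, and the ranges of the first 3 overlapped. The lead of Tox4 turned with flanks of 10 kb, where it had a mean of 5.37 and Tox2 5.67. Tox4 without the peaks at its neighbours' promoters had a mean of 0.582 ± 1.01, because its own promoter peak, shared with Rab2b, was left out as well.

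Genes as long as Tox had fewer peaks per 100 kb than genes as long as Tox4, so each gene was also ranked among genes of similar length. Among the 702 genes with a body within 1.5 times the length of Tox, the median was 0.684, 2.17 and 1.93 peaks per 100 kb, and Tox stood at percentile 87.6, 78.8 and 76.5. Among all protein-coding genes it stood at 50.8, 46.7 and 44.9. Tox2 stood at percentile 81.1, 70.0 and 61.3 of 2019 genes of similar length, and Tox4 at 55.0, 42.8 and 44.0 of 4779. Tox3 stood at 0, 14.9 and 0 of 2323. Tox and Tox2 thus held more peaks than most genes of their length in every library, and Tox3 fewer.

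**Figure D2:**
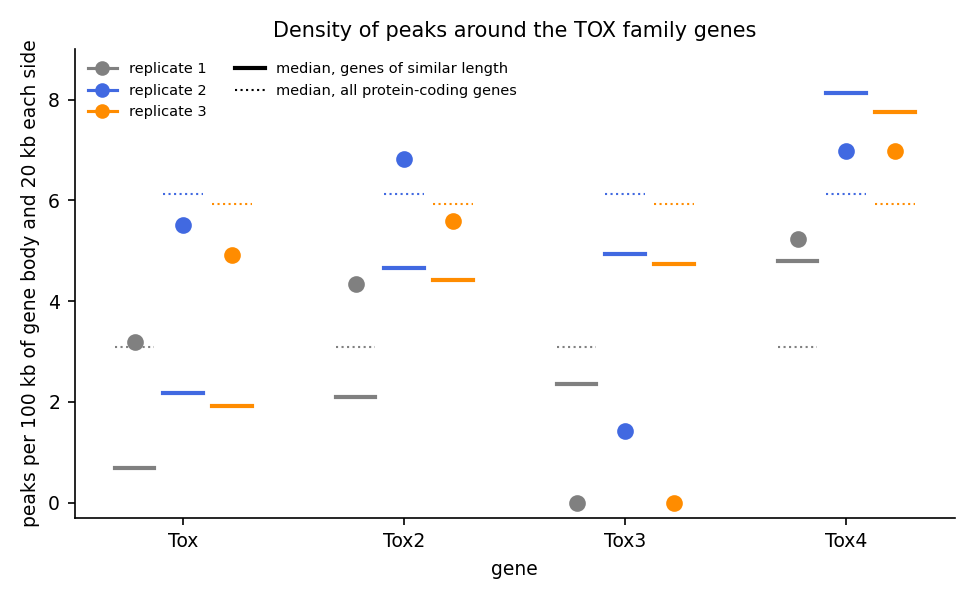
Peaks per 100 kb of gene body and 20 kb each side (y axis) for the 4 TOX family genes in replicates 1, 2 and 3 (points), with the median of genes of similar body length (solid bars) and of all protein-coding genes (dotted bars) in the same library. Tox and Tox2 lie above the median of their length class in each library, Tox3 below it, and Tox4 above it in replicate 1 only.

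The intervals of raised cut rate gave a similar picture without peak calls. At an FDR of 0.05 or less they covered 1023, 1934 and 2019 bp per 100 kb of the Tox window and 1115, 2510 and 2289 bp of the Tox2 window. In the Tox4 window they covered 3828, 4321 and 4681 bp. All 3 genes were above the genome-wide cover of 591, 1185 and 1133 bp in every library. That cover includes DNA far from genes, and the cover of the windows of other genes was not computed. Tox4 was highest in each library, with its range above those of Tox and Tox2, while the ranges of Tox and Tox2 overlapped. The Tox4 window includes the promoter shared with Rab2b and that of Mettl3, and its cover without these was not computed.

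Footprints numbered 23, 48 and 40 for Tox, 10, 32 and 26 for Tox2, 15, 18 and 21 for Tox4 and 0 in each library for Tox3. The mean of 18 for Tox4 became 39 with flanks of 50 kb and 10.3 inside peaks or in the gene body alone. Per kb of peak, Tox had 7.42, 9.67 and 8.36 footprints and Tox2 had 7.08, 10.8 and 10.1, below the library values of 9.62, 11.2 and 11.1 in each case. Merging footprints that shared at least 50% of the shorter one gave 86 for Tox, of which 4 were in all 3 replicates, 48 for Tox2 with 3, and 27 for Tox4 with 8. Over the family, 15 of 161 merged footprints (9.32%) were in all 3 replicates and 48 (29.8%) in at least 2. Of all 366047 merged footprints of the genome, 14.0% were in all 3 and 35.1% in at least 2. Tox and Tox2 together had 7 of 134 (5.22%) in all 3, and Tox4 8 of 27 (29.6%). Of these 8 in the Tox4 window, 2 lay at the Mettl3 promoter. Another 3 lay in the promoter site shared with Rab2b and 3 just upstream of it. Of the footprints of Tox and Tox2, 100 of 134 were seen in a single library.

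**Figure D3:**
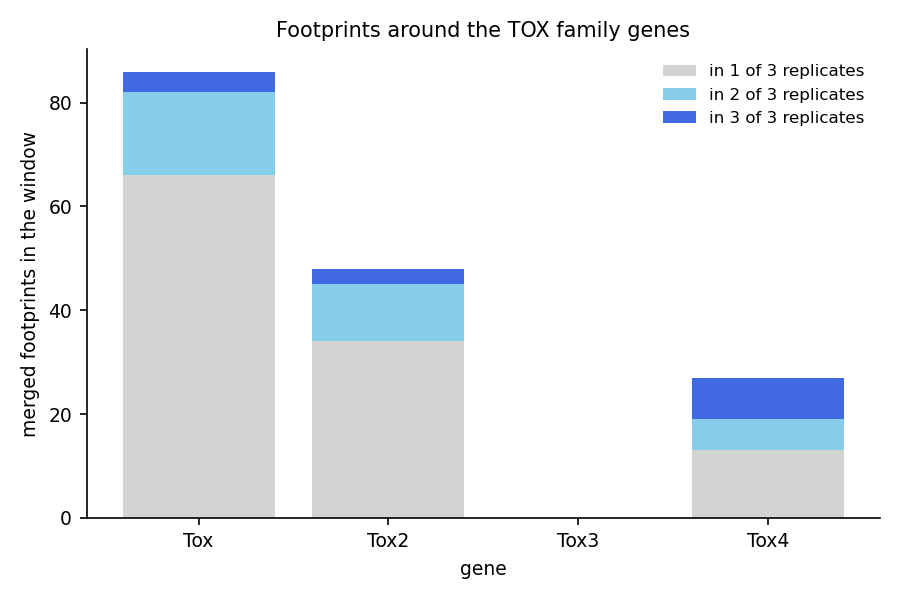
Merged footprints in the window of each TOX family gene (y axis, number), split by the number of replicates that hold them. Tox has 86 with 4 in all 3 replicates, Tox2 has 48 with 3, Tox4 has 27 with 8, and Tox3 has none. Of the 8 in the Tox4 window, 2 lie at the Mettl3 promoter and the others at or beside the promoter shared with Rab2b.

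The 25 motifs were searched on both strands in the 150 bp around the middle of the strongest peak of each site. This window runs past the ends of narrow sites. Footprints were searched with 5 bp added on each side. A RUNX motif was present in 5 of the 41 sites, the lymphoid ETS form (ACAGGAAG) in 3, AP-1 (TGANTCA) in 3, GATA in 3 and CTCF in 2. Of all peaks, 4.16%, 5.08% and 5.29% held the lymphoid ETS form and 5.17%, 6.47% and 7.49% the AP-1 motif, while the shares for RUNX, GATA and CTCF are given above. NFAT (TGGAAAA), the calcineurin-driven factor, was present in 1 site, Tox site 13 of replicates 2 and 3, and in 2.00%, 2.12% and 2.10% of all peaks. Outside the 150 bp, the NFAT letters also occurred in Tox sites 2 and 18. The share of all peaks over their whole length was not computed. No site held the T-box motif (AGGTGTGA) of Eomes and Tbx21, which 1.14%, 1.17% and 1.48% of all peaks held, nor the STAT motif (TTCNNNGAA), which 3.35%, 3.51% and 3.52% held. Among the 48 footprints shared by at least 2 replicates, a GC box occurred in 4, 3 of them at Tox4, and no other motif in more than 1. A match is a run of letters in a window and does not show a bound factor.

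Between the larger libraries, the sites of the family leaned towards replicate 3. Of the 27 sites held by both replicates 2 and 3, 19 (70.4%) had a higher percentile in replicate 3, with a median difference of 5.43 points. Of all 64695 such sites in the genome, 41.4% were higher in replicate 3. For Tox these were 10 of 15 sites, for Tox2 6 of 9, and for Tox4 3 of 3. The shift was present at Tox2 site 6 and site 8 and at Tox site 21. It was absent at the promoter sites of Tox2 and at Tox sites 12 and 20. Tox site 1 was nearly level, at percentile 64.7 in replicate 2 and 65.0 in replicate 3. The natural killer marker promoters were also higher in replicate 3 than in replicate 2 by median percentile (81.9 and 75.3), and the B and T cell lists lower (71.6 and 84.2, and 29.3 and 51.0). Their part in the shift was not tested, and sites of 1 gene are not independent of each other.

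**Figure D4:**
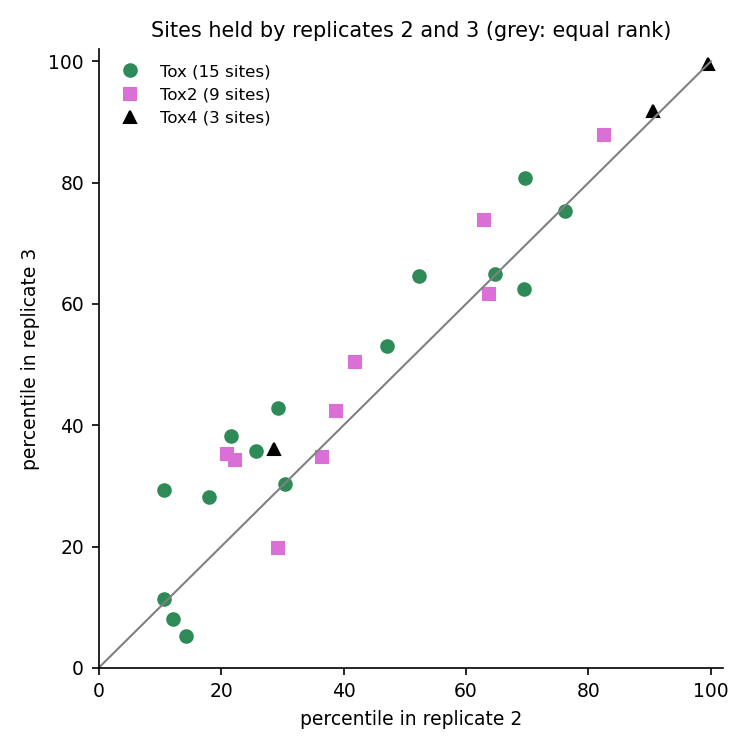
Percentile of each site of Tox, Tox2 and Tox4 in replicate 2 (x axis) and replicate 3 (y axis), for the 27 sites held by both, with the line of equal rank in grey. Above the line lie 10 of 15 sites of Tox, 6 of 9 of Tox2 and 3 of 3 of Tox4.

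The genes that work with TOX proteins were mostly open. All 5 genes of the PNUTS phosphatase complex, the partner of Tox4, were open in all 3 libraries, where 52.5% of all genes were. Their median percentiles were 86.3, 97.0 and 96.6, and Ppp1r10, which encodes PNUTS, stood at 98.8, 99.5 and 99.6. All 13 genes of the calcineurin and NFAT list, the route to Tox induction in T cells, were open in all 3, led by Calm3, Ppp3ca and Calm2. All 8 genes of the HBO1 acetyltransferase complex, which Tox binds in T cells, were open as well, led by Brpf1, Ing5 and Brpf3. The median over all protein-coding genes was 22.8, 58.4 and 55.5, closed genes included.

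Other HMG-box genes were open in all 3 libraries for 24 of 27 genes, Hmgb2 and Cic among them, and Sox9 and Sox18 were closed in each. Their median percentiles were 79.8, 85.7 and 85.5, above Tox and Tox2 and below Tox4 in each library. Factors of natural killer development were open in all 3 for 19 of 22, led by Klf2, Ets1 and Id2, with medians of 66.6, 85.3 and 84.5. Eomes, a T-box factor that specifies natural killer cells, stood at 65.2, 72.0 and 82.8. Over all annotated starts of Tox, Eomes was below Tox in replicates 1 and 2 and above it in replicate 3. Against the 5′ end of Tox, at 72.3, 64.7 and 65.0, Eomes was below in replicate 1 and above in replicates 2 and 3. Of the 16 factors known from T cell dysfunction, the setting in which Tox is best studied, 11 were open in all 3, led by Nr4a1, Entpd1 and Prdm1. Pdcd1, which encodes the inhibitory receptor PD-1, was the gene of that list with no promoter peak in any library. These lists were chosen with earlier results of the data known and their counts are descriptions.

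By promoter percentile over the 3 libraries, the genes most like Tox were Sox8, 1110012L19Rik and Vwa8, at Euclidean distances of 1.18, 1.35 and 1.37 percentile points. For Tox these percentiles come from the site at the 3′ end in replicates 2 and 3. Likeness to its 5′ end, at 72.3, 64.7 and 65.0, was not computed. The genes most like Tox2 were Map4k4, Gm14410 and Amot, at 1.81, 1.94 and 2.21 points. Those most like Tox4 were Gsk3b, B3gntl1 and Cdk2ap2, within 0.0868 points. Tox3 shared its exact pattern, closed in replicates 1 and 3 and at 4.42 in replicate 2, with 9 genes, among them Krt35, Adgrf1 and Spaca1. Likeness here rests on 3 values a gene.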

How the data were processed

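DNase-seq libraries of natural killer cells (3 replicates, 1 group) were analysed from the lists that the authors deposited per library, on mm10; no source used here names the aligner or the callers. The deposited peak lists give a signal per peak, whose values are whole multiples of 1 step per library (100% of peaks, within 0.05 of a step); neither the meaning of a step nor the read depth is known, so signal was ranked within each library. The score that the authors deposited with footprints is a constant, and their positions alone were used. The deposited cut-rate files give a q-value (false discovery rate, FDR) per interval.

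Peaks were assigned to a window by their middle, merged across libraries where they overlapped by at least 1 bp, and called promoter peaks within 500 bp of an annotated start. Genes and coordinates came from the GENCODE annotation, and the 25 motifs were exact letter matches on both strands, where matches of different motifs may overlap. Letters not given with the results were CCGGAAG for the ETS form with CpG, GAGGAAGT for PU.1-like ETS factors, TGACGTCA for cyclic AMP response elements, TTANGTAA for NFIL3, CACGTG for another E-box, GAAANTGAA for IRF factors, ATCAAAG for TCF and LEF, AAAGGTCA for NR4A receptors, GCGCATGCG for NRF1, AANATGGCG for YY1, CCAATCA for NF-Y, TGTTTAC for forkhead factors and ATGCAAAT for POU factors, and NF-kB and CTCF were searched by their consensus. Peak and merging steps were tested on simulated data. Python 3.11.15, numpy 2.4.6 and pandas 2.3.3 were used. With 1 group of 3 libraries no test was made, and values are given as mean ± SD.

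The members and lists were chosen with earlier results of these data known. Named genes were the members, up to 3 leading open and up to 3 closed genes of each list (closed ones in alphabetical order), genes starting in a window, and the 3 genes nearest in promoter percentile. Eomes, Jph2 and a few sites beyond this rule were named after their values were seen. Some list genes that this rule selects are not reported here. Named sites were promoters and up to 3 others held by all libraries with the highest mean percentile. Alternatives were the stricter list, other flanks, other starts, equal numbers of peaks and leaving out each replicate.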

Additional observations from a re-analysis of the deposited data

How the results depend on the processing

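The number of members with a promoter peak in every library used stayed at 3 under 9 alternatives, of which 3 left out a replicate. Of 125 alternative values, 21 moved by more than 1 SD between replicates and 104 did not. Counts of members or sites, which have no SD, were called moved beyond 1.5 times. A mean over 3 libraries cannot move by more than 1 SD when 1 of them is left out. Those alternatives are among the 104 by construction and say nothing about stability. Peaks per 100 kb fell to 2.99 for Tox, 3.73 for Tox2 and 4.08 for Tox4 with the stricter list. With equal numbers of peaks per library, 40484 each, they were 2.12, 2.69 and 4.08. For Tox4 they were 5.37 with flanks of 10 kb and 0.582 without peaks at other genes' promoters, and with flanks of 10 kb Tox2, at 5.67, stood above Tox4. Footprints of Tox4 averaged 18 as reported, 39 with flanks of 50 kb, and 10.3 both inside peaks and in the gene body alone. The mean over 2 libraries, leaving out each replicate in turn, ranged from 4.06 to 5.21 for Tox, 4.97 to 6.21 for Tox2, 0 to 0.708 for Tox3 and 6.11 to 6.99 for Tox4, and without replicate 2 Tox3 had 0 peaks. Sites of Tox in all 3 libraries numbered 5 instead of 9 with the stricter list and with equal numbers of peaks. These lists hold fewer peaks by construction. The alternatives by protein-coding starts, by the 5′ end alone and by equal peak numbers for shared sites were chosen after seeing the data. The read depth is unknown, so absence of a peak in replicate 1, the shortest list, does not show closed chromatin.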
